A study of Homo sapiens with 4 samples.

Results

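The axon guidance genes of A549 cells were compared between cells expressing a control shRNA and cells in which the long non-coding RNA USP2-AS1 was knocked down. They were taken by name from the deposited gene table: every protein-coding row whose symbol begins as a semaphorin, plexin, Eph receptor, ephrin, UNC5, Robo or SLITRK gene, or as a neuropilin, Slit or netrin gene followed by a digit, or is PLXDC1, PLXDC2, CEND1, DCC or NEO1. The rule found 33 of the 6828 listed rows, of which 6372 were protein-coding. The human annotation (GENCODE v44) holds 82 protein-coding symbols that fit the same rule, and those outside the 33 are not analysed here. The table holds only rows that passed the adjusted p-value limit of 0.05 in the comparison of the same 4 libraries, so each of the 33 genes had been picked for a difference between the groups. Their fold changes and calls are therefore descriptions and carry no test.

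A549 is a human lung adenocarcinoma line of epithelial cells. The cells were infected with lentiviruses carrying a control shRNA (shctrl) or an shRNA against USP2-AS1 (shUSP2-AS1), in the PLKO.1 vector, and total RNA was collected 72 h after infection for poly(A)-selected RNA-seq. Each group had 2 libraries, which the study's methods call biological replicates, and infected cells were selected with puromycin. All values came from 1 cell line, and the sources used here do not say which of the study's USP2-AS1 shRNAs was sequenced. The sources do not say whether the replicates were infected separately, so the errors cover only these libraries. Standard deviations (SD) are the spread between the 2 libraries of a group. Standard errors (SE) come from limma, which pulls the variance of each gene toward a trend over all rows tested. An SE is therefore not the spread of the gene alone, and those rows had been chosen on this contrast. In bulk RNA, a change in the share of cells that express a gene and a change in RNA per cell cannot be told apart.

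Axon guidance proteins are the cues and receptors by which a growing nerve process finds its way, and epithelial and tumour cells use many of the same genes to control adhesion, movement and contact with neighbours. Semaphorins act through plexins, and most secreted class 3 semaphorins need a neuropilin as the binding partner of the plexin. Ephrins are bound to the cell surface and signal to Eph receptor tyrosine kinases on the touching cell, with signals also running back into the ephrin-bearing cell. Netrins bind DCC and UNC5 receptors, and Slit proteins bind Robo receptors. The name rule also caught CEND1, a membrane protein linked to cell cycle exit and neuronal differentiation, and UNC5CL, which resembles the intracellular portion of a netrin receptor and is not an established one.

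The 4 libraries held 10772788 to 14120472 recovered reads on the listed rows. Values are normalized read counts, and fold changes are differences of log2(value + 1), shUSP2-AS1 minus shctrl, which understate the change of genes with low counts. USP2-AS1 itself stood at 23.2 and 24.2 in shctrl and at 2.10 and 6.16 in shUSP2-AS1, from 24, 22, 2 and 7 reads. E2F1, a transcription factor of the cell cycle, had 1280 and 1241 in shctrl against 276 and 304 in shUSP2-AS1. The label check of the cells used markers of A549 and epithelium, of which 7 of 10 were listed (CDH1, EPCAM and AKR1C1 were not), with summed values of 375954 to 393651 in shctrl and 364843 to 371946 in shUSP2-AS1. Of these 7, 3 were higher (KRT19 at 0.75, ALDH1A1 at 0.41 and AKR1B10 at 0.26) and 4 lower (among them KRT18 at -1.05, KRT8 at -0.77 and KRT7 at -0.49), and KRT18 alone was called. No endothelial marker (0 of 5) was listed. Neuronal markers were listed for 5 of 13 genes, with sums of 950 to 1010 in shctrl and 1726 to 1861 in shUSP2-AS1. Of these, SYP, SYT1 and MAP2 were called higher and RBFOX3 had a log2 fold change of -0.68. Fibroblast and mesenchyme markers were listed for 3 of 7 genes, with sums of 15883 to 16564 in shctrl and 24545 to 26927 in shUSP2-AS1 that were mostly FN1 (0.64). ACTA2 (1.79) and COL1A1 (1.05) were called higher. Their part in the values of the axon guidance genes was not tested, and a marker that is not listed is not thereby at 0. Over all rows tested, 16.1% were called higher and 13.5% lower, and the marker rows had been selected on the same contrast.

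Of the 33 genes, 25 were higher and 8 lower in shUSP2-AS1, and the 2 groups of libraries overlapped in none of them. Over all 6812 rows tested, 50.6% were higher in both shUSP2-AS1 libraries than in both shctrl libraries and 49.3% were lower in both, so nothing is read from the absence of overlap. With a call at a Benjamini-Hochberg adjusted p below 0.05 in limma and a log2 fold change of at least 1 in size, 10 genes (30.3%) were called higher and 2 (6.06%) lower. The background was 16.1% of all rows called higher and 13.5% called lower, and since the rows were chosen on this contrast no weight is placed on the difference. The median log2 fold change was 0.52, with a range from -1.70 for EFNA3 to 3.53 for PLXNA4, against a median of 0.19 over all rows tested. Ligands (14 genes) had 10 higher and 4 lower members and a median of 0.49, and receptors (16 genes) had 13 higher and 3 lower and a median of 0.56.

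**Figure D1:**
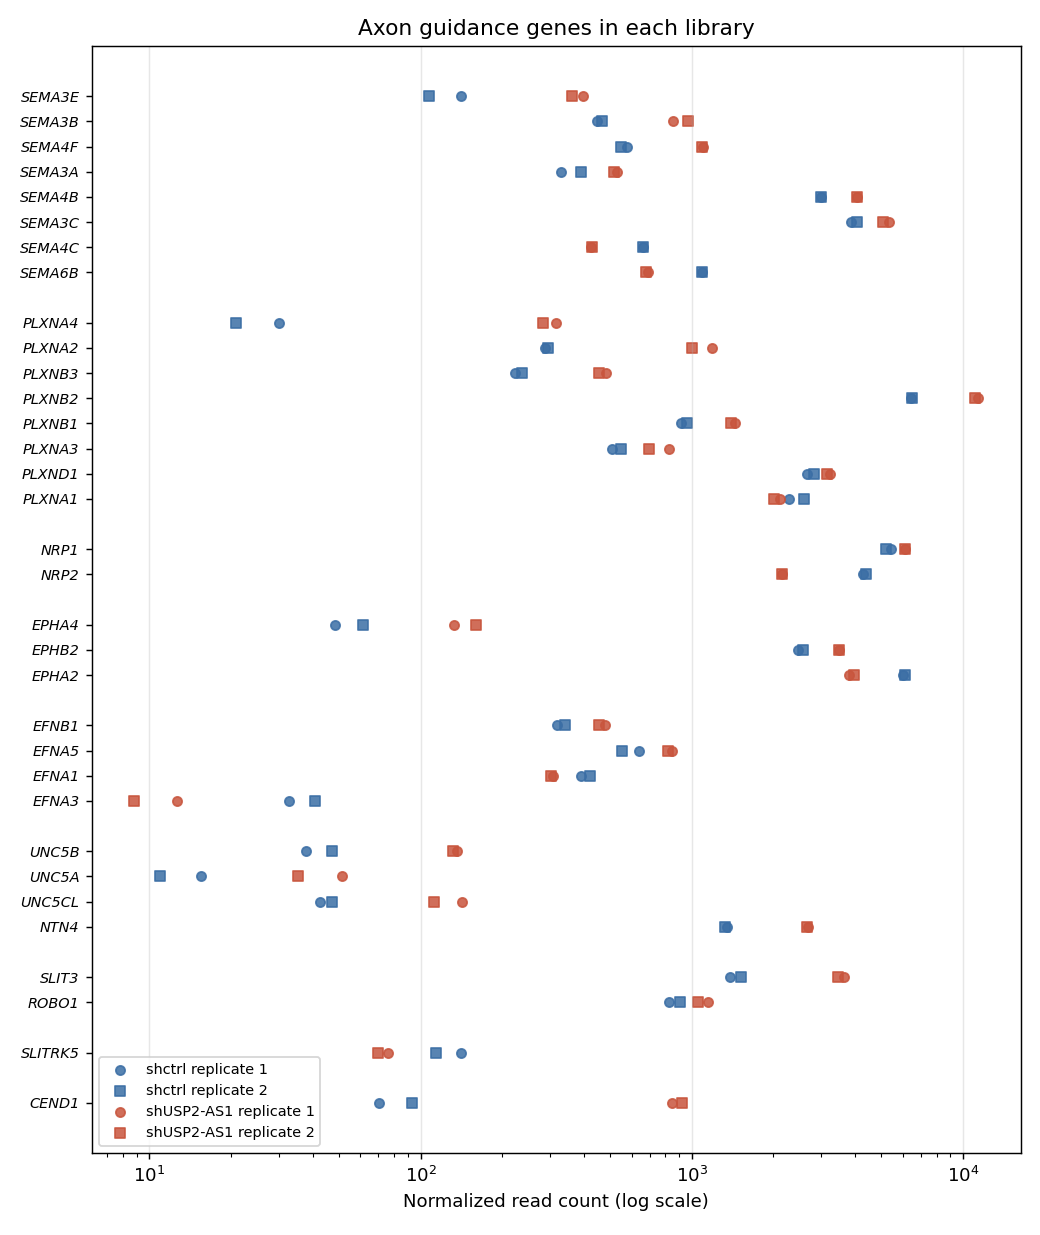
Normalized read count (horizontal, log scale) of each of the 33 axon guidance genes in each of the 4 libraries, grouped by family; blue points are shctrl and red points shUSP2-AS1, with circles for replicate 1 and squares for replicate 2. PLXNA4 and CEND1 show the widest gap between groups, and the groups of PLXNA1 lie closest to each other (2125 against 2283 at the nearest points).

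The stretches of promoter sequence below are those of 3 genes with large positive values (CEND1, PLXNA2 and SEMA3E) and of the 2 genes called lower (NRP2 and EFNA3). They are examples from both sides of the range and do not stand for the higher or lower genes. PLXNA4, the highest, is left out because its window holds no exon-free base before the RefSeq start. UNC5A (1.63), just above SEMA3E (1.62), is not shown. They come from RefSeq promoter windows on GRCh38.p14, 5′ to 3′ on the strand of the gene, and each holds 160 bases that lie in no annotated exon. The stretches end at the base before the RefSeq start, except that CEND1 ends 23 bases and NRP2 1 base further upstream. The NRP2 stretch lies inside the deposited span of that gene, which begins at 205681990. Capitals mark matches to GGGCGG, the GC box, on either strand, or to CACGTG, an E-box, which was found in SEMA3E. The stretches lie at chr11:790114-790273 (minus strand) for CEND1, chr1:208244385-208244544 (minus) for PLXNA2, chr7:83649140-83649299 (minus) for SEMA3E, chr2:205682340-205682499 (plus) for NRP2 and chr1:155078677-155078836 (plus) for EFNA3.
CEND1: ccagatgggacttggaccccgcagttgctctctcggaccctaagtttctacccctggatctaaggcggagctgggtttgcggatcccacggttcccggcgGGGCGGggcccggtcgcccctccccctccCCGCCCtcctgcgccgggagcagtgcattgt
PLXNA2: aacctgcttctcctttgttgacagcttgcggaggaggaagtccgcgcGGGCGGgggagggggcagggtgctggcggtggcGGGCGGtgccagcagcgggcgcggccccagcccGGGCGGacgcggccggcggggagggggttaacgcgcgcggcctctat
SEMA3E: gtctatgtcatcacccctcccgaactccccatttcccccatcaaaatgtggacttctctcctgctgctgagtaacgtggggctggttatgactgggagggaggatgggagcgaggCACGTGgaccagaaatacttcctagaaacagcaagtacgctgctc
NRP2: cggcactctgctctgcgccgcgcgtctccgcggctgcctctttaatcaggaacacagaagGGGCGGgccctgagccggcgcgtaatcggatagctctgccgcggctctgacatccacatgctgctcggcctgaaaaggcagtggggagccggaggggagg
EFNA3: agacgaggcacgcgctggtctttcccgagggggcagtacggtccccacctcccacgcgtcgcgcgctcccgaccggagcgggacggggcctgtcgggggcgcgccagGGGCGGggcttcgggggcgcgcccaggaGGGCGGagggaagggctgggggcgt

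Promoter windows of 300 bases, 250 before and 50 after the start, were matched for 29 of the 33 genes and gave 44 windows. NRP1, SEMA3A, SEMA6B and UNC5B were not matched. GGGCGG (read on both strands, so CCGCCC counts too) occurred in 26 of 29 genes (89.7%), against 79.0% of 5136 listed protein-coding genes and 48.3% of all 27305 genes with a window. The members without it were ROBO1, PLXNA4 and SEMA3E. The only window of PLXNA4 (chr7:132576421-132576720, minus strand) lies inside the deposited span of the gene. The 5′ end of that span, at 132648688, was therefore not examined. Every window of NRP2, PLXNB2, SEMA4B and SEMA4C also lies inside the deposited span of its gene. CACGTG occurred in 1 gene, SEMA3E (3.45%), against 12.9% of listed genes and 8.77% of all genes. The E2F motifs TTTCCCGC, TTTGGCGC, TTTCGCGC and TTTGCCGC occurred in 0 of 29, against 3.49%, 1.30%, 1.03% and 1.07% of listed genes and 1.98%, 0.795%, 0.630% and 0.725% of all genes, and the AP-1 motif TGACTCA, whose reverse complement is TGAGTCA, in 0 of 29 against 5.18% of listed and 6.05% of all genes. The median GC content of the windows was 67.7%, compared with 65.3% for listed protein-coding genes and 58.7% for all. A match, or its absence, describes the letters in this window and says nothing about binding of a factor.

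Of the semaphorins, 8 of 20 symbols were listed, with 6 higher and 2 lower and a median log2 fold change of 0.50. The 4 secreted class 3 genes were all higher, with a median of 0.77, while the 4 transmembrane genes of classes 4 and 6 divided into 2 higher and 2 lower. SEMA3E, which binds PLXND1 without a neuropilin, stood furthest from 0. It had 141 and 108 in shctrl and 399 and 363 in shUSP2-AS1, a mean of 124 ± 23.6 against 381 ± 25.3 (SD, n = 2) and a log2 fold change of 1.62 ± 0.14 (SE). Both knockdown libraries lay above both control libraries. SEMA3E was the sole semaphorin called (12.5% of the 8, against 16.1% of all rows tested called higher). Its gene lies on chromosome 7, from 83363238 to 83649139 on the minus strand, 307 kb from SEMA3A, which was also higher.

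SEMA3C, a secreted cue known from development of the heart outflow tract, was the semaphorin with the highest level per length. It had 3862 and 4076 in shctrl and 5360 and 5084 in shUSP2-AS1, and the log2 fold change was 0.40 ± 0.05. SEMA3B, a secreted gene studied as a tumour suppressor, had a log2 fold change of 0.99 ± 0.08, and SEMA3A, the classical growth cone collapsing factor, of 0.55 ± 0.10. Among the membrane-bound genes, SEMA4F had 0.96 ± 0.07 and SEMA4B 0.44 ± 0.05, while SEMA4C, a ligand of PLXNB2, had -0.62 ± 0.08 and SEMA6B, a ligand of PLXNA4, had -0.68 ± 0.07. Per kb of gene length, the 8 semaphorins summed to 1661 ± 24.0 in shctrl and 2101 ± 22.8 in shUSP2-AS1, 1.26-fold. SEMA3C held 39.2% and 40.7% of that sum in the 2 groups. The share of SEMA6B was 15.3% in shctrl and 7.57% in shUSP2-AS1.

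Plexins, the semaphorin receptors, were listed for 8 of 9 symbols, with PLXNC1 the exception, and 7 of the 8 were higher. Their median log2 fold change was 0.70, and 3 of them were called higher (37.5%, against 16.1% of all rows tested). The rows were chosen on this contrast, so no weight is placed on the difference. PLXNA4 had 30.0 and 20.9 in shctrl and 315 and 283 in shUSP2-AS1, from 31 and 19 reads against 300 and 322. The means were 25.4 ± 6.42 and 299 ± 22.6, a ratio of 11.8, and the log2 fold change was 3.53 ± 0.20. The groups stood far apart, but the control libraries of PLXNA4 differed from each other by 0.50 on the log2 scale, the widest such gap between shctrl libraries among the 33 genes. The gene spans 132123332 to 132648688 of chromosome 7, on the minus strand. PLXNA2, which like PLXNA4 pairs with neuropilins and also binds class 6 semaphorins, had 287 and 295 against 1187 and 1004, which gives 1.91 ± 0.09 on the log2 scale. PLXNA3 had 0.52 ± 0.09.

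PLXNA1, a main partner of the neuropilins, was the exception among the plexins. Its values were 2283 and 2588 in shctrl and 2125 and 2005 in shUSP2-AS1, which gives -0.24 ± 0.06 on the log2 scale. It was the only one of the 33 genes whose smallest difference between a knockdown and a control library (-0.10) did not exceed the difference between replicates of the same group. The make-up of the class differed between the groups. PLXNA1 held 76.6% ± 0.979 of the summed level per kb of the 4 class A genes in shctrl and 53.8% ± 1.83 in shUSP2-AS1. The share of PLXNA2 was 7.25% and 22.5%, that of PLXNA3 15.6% and 18.5%, and that of PLXNA4 0.542% and 5.21%. The sum itself was 290 and 351, 1.21-fold.

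In class B, PLXNB2, a receptor for SEMA4C that is widely expressed outside the nervous system, had 6437 and 6494 in shctrl and 11397 and 11052 in shUSP2-AS1. Its log2 fold change was 0.80 ± 0.05, and it held 55.8% of the summed plexin level per kb in shctrl and 63.2% in shUSP2-AS1. PLXNB3, a receptor for SEMA5A, had 222 and 237 against 482 and 457, a log2 fold change of 1.03 ± 0.10. Among the genes called higher it was the nearest to the limit, and its value without shctrl replicate 1 was 0.98 and without shUSP2-AS1 replicate 1 was 0.99. Of its exon bases, 20.4% are shared with SRPK3 on the same strand. PLXNB1, the receptor of SEMA4D, had 0.60 ± 0.07. The class B sum per kb was 1017 ± 10.4 and 1755 ± 40.1, 1.73-fold. PLXND1 had a log2 fold change of 0.22 ± 0.05 beside the 1.62 of its ligand SEMA3E, and the ratio of SEMA3E to PLXND1 per kb was 0.0516 ± 0.0120 in shctrl and 0.135 ± 0.00644 in shUSP2-AS1.

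The neuropilins, which bind class 3 semaphorins and vascular endothelial growth factors, had opposite signs. NRP2 had 4268 and 4390 in shctrl and 2161 and 2144 in shUSP2-AS1. Its log2 fold change was -1.01 ± 0.05, and it was called lower. NRP1 had 5432 and 5201 against 6098 and 6117, a log2 fold change of 0.20 ± 0.05, close to the median of all rows. NRP2 was the nearest of the genes called lower to the limit, with a value of -0.99 without shctrl replicate 2. Per kb, NRP1 stood to NRP2 at ratios of 1.54 and 1.43 in shctrl against 3.40 and 3.44 after knockdown, and the share of NRP2 in the neuropilin sum was 40.3% ± 1.22 and 22.6% ± 0.137. The 4 listed class 3 semaphorins summed to 784 ± 29.0 per kb in shctrl and 1116 ± 21.7 in shUSP2-AS1. That sum leaves out SEMA3D, SEMA3F and SEMA3G, which are not listed, and includes SEMA3E, which binds PLXND1 without a neuropilin. The 2 neuropilins summed to 773 ± 7.95 and 685 ± 0.296, so the sums do not set all ligands against their receptors.

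**Figure D2:**
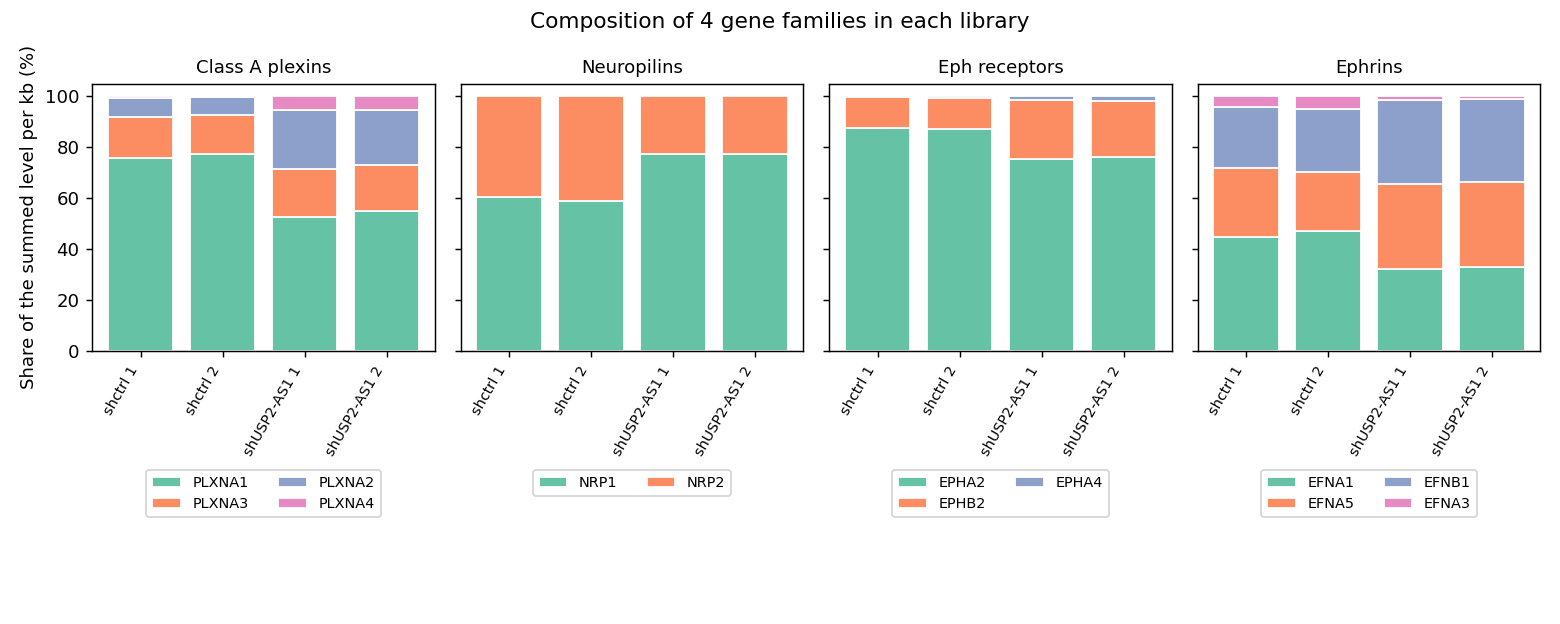
Share (vertical, percent) of each listed gene in the summed level per kb of 4 gene families, with 1 bar per library. Between shctrl and shUSP2-AS1, the mean shares of PLXNA1 (76.6% and 53.8%), NRP2 (40.3% and 22.6%), EPHA2 (87.5% and 75.8%) and EFNA1 (45.8% and 32.7%) were lower in the knockdown.

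Eph receptors were listed for 3 of 14 symbols and ephrins for 4 of 9, and the 7 genes had 4 higher and 3 lower members with a median log2 fold change of 0.47. Among the ligands, EFNA3, a GPI-anchored ephrin, had 32.9 and 40.7 in shctrl and 12.6 and 8.80 in shUSP2-AS1. It was called lower, at a log2 fold change of -1.70 ± 0.39, and rests on 34, 37, 12 and 10 reads. Its exon bases are shared to 43.9% with the readthrough gene EFNA4-EFNA3, so its reads are not assigned with certainty. EFNA1, which lies 40.3 kb away on chromosome 1 and is the main ligand of EPHA2, had -0.41 ± 0.10. EFNB1, a transmembrane ephrin, had 0.50 ± 0.10, and EFNA5, a GPI-anchored ligand of several EphA receptors, had 0.48 ± 0.08. Over the 4 listed ephrins the sum per kb was 410 ± 8.48 and 433 ± 10.9, 1.06-fold, with EFNA1 at 45.8% of it in shctrl and 32.7% in shUSP2-AS1. Ephrins and Eph receptors that are not listed are missing from these sums and shares and are not thereby at 0.

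Of the receptors, EPHA4, which binds ephrins of both classes, had 48.3 and 61.5 in shctrl and 132 and 160 in shUSP2-AS1. Its log2 fold change was 1.40 ± 0.20, and it was called higher. EPHA2, a receptor that is abundant in many carcinoma lines, had 6018 and 6107 against 3787 and 3958, a log2 fold change of -0.65 ± 0.05. EPHB2, a receptor of ephrin-B ligands, had 0.47 ± 0.05. EPHA2 was the highest of the 33 genes per kb in shctrl, so the sum over the 3 receptors followed it and was 1673 ± 22.5 in shctrl and 1234 ± 30.7 in shUSP2-AS1, a ratio of 0.737. EPHA2 held 87.5% ± 0.267 of the sum in shctrl and 75.8% ± 0.475 in shUSP2-AS1, and EPHB2 12.1% and 22.7%. Receptors and ligands that can bind each other had the same sign in some pairs and opposite signs in others. EPHA2 was lower like EFNA1 and EFNA3, EPHB2 was higher like EFNB1, and EPHA4 was higher like EFNA5 and EFNB1. In contrast, EPHA4 was higher beside the lower EFNA1 and EFNA3, and EPHA2 was lower beside the higher EFNA5.

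The netrin and UNC5 genes were listed for 4 of the 12 symbols that fit the name rule, DCC and NEO1 not being among the 4. The 12 include UNC50, which fits by its first letters but is neither a netrin nor an UNC5 receptor gene and is not listed. All 4 listed genes were higher, with a median log2 fold change of 1.55. UNC5B and UNC5A are receptors that mediate repulsion by netrin and carry a death domain. UNC5B had 37.7 and 47.3 in shctrl and 137 and 132 in shUSP2-AS1, which gives 1.65 ± 0.20 on the log2 scale. UNC5A had 15.5 and 11.0 against 51.5 and 35.2, from 16, 10, 49 and 40 reads, and a log2 fold change of 1.63 ± 0.36. UNC5CL had 42.5 and 47.3 against 142 and 112, a log2 fold change of 1.47 ± 0.21, and shares 23.7% of its exon bases with OARD1 on the same strand. These 3 genes were called higher, beside 16.1% of all rows tested, and like every listed row they had been chosen on this contrast. In shctrl each of the 3 had a mean of fewer than 50 reads. NTN4, a netrin of basement membranes, was far more abundant per length than the UNC5 genes. Its log2 fold change of 1.00 ± 0.06 fell just short of the limit before rounding, and SEMA3B at 0.99 was the next gene outside it. Without shctrl replicate 1 the value of NTN4 was 1.01.

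SLIT3, a secreted ligand of Robo receptors, had 1389 and 1518 in shctrl and 3655 and 3478 in shUSP2-AS1. Its log2 fold change was 1.30 ± 0.06, and it was called higher. The receptor ROBO1 had 0.35 ± 0.07, and SLIT3 and ROBO1 were the only listed genes among the 7 Slit and Robo symbols. SLITRK5, a neuronal membrane protein with repeats like those of Slit, had 141 and 114 against 75.7 and 69.6, a log2 fold change of -0.80 ± 0.18. CEND1 had 70.5 and 93.4 in shctrl and 849 and 922 in shUSP2-AS1, with means of 82.0 ± 16.2 and 885 ± 51.7, a ratio of 10.8. The log2 fold change of CEND1 was 3.43 ± 0.13, second to PLXNA4. The gene lies on chromosome 11 from 787115 to 790113 on the minus strand.

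**Figure D3:**
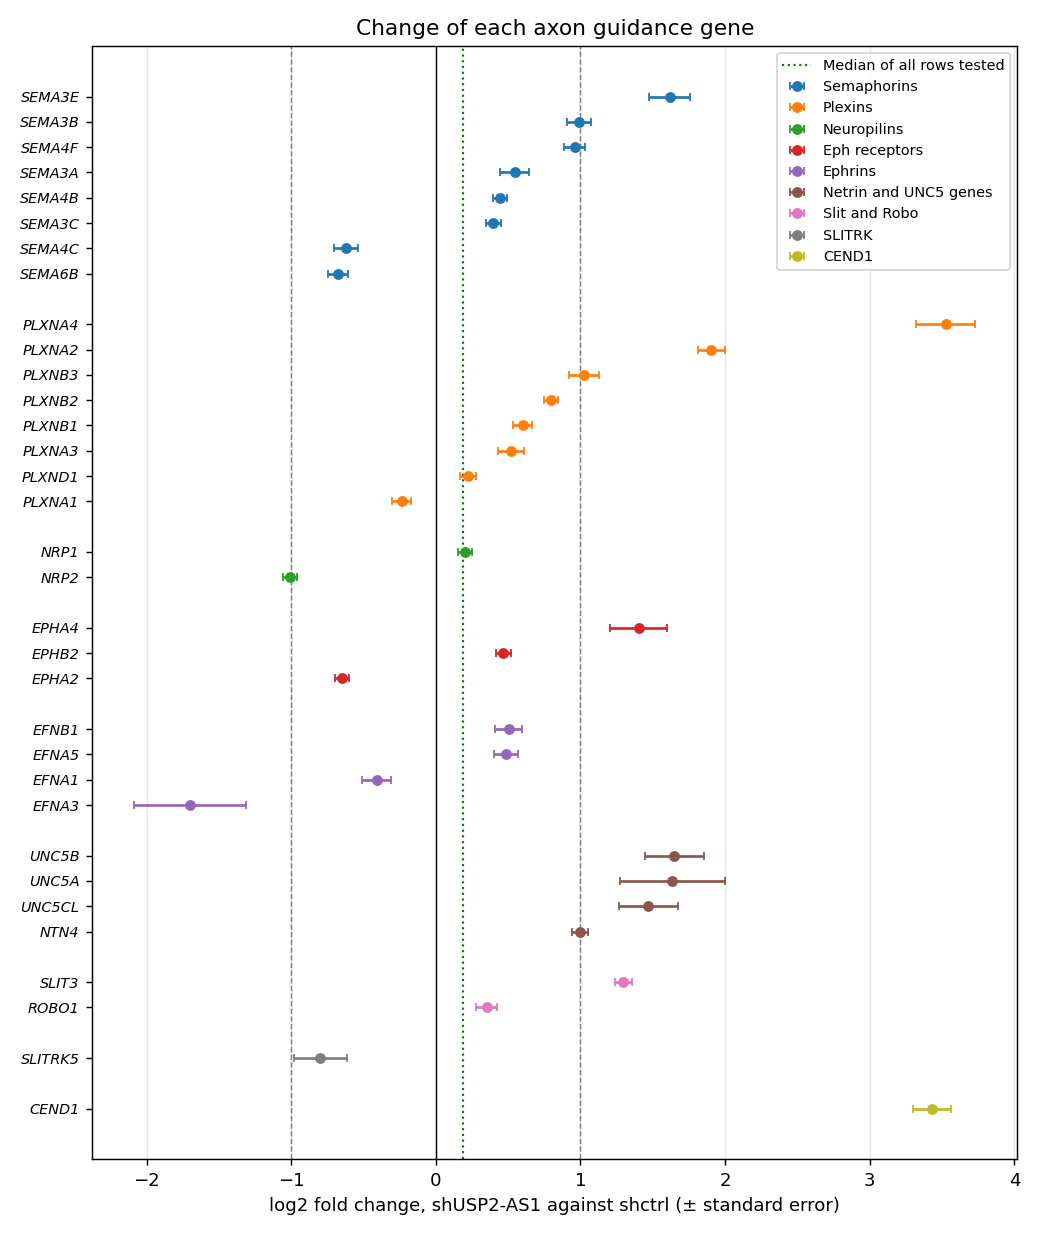
log2 fold change of each gene (horizontal, difference of log2(value + 1), shUSP2-AS1 minus shctrl) with its limma standard error, coloured by family. Dashed lines mark -1 and 1 and the dotted line the median of all rows tested (0.19). The 4 netrin and UNC5 genes lie at 1.00 to 1.65, whereas neuropilins, Eph receptors, ephrins, semaphorins and plexins have members on both sides of 0.

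Levels per kb of gene length spanned a wide range. In shctrl the order began with EPHA2 at 1464, PLXNB2 at 889, SEMA3C at 651 and NRP1 at 461 normalized reads per kb, and ended with UNC5A and PLXNA4, the latter at 1.55. In shUSP2-AS1, PLXNB2 came before EPHA2, at 1543 and 935. CEND1 moved from rank 21 at 50.4 per kb to rank 6 at 544, and NRP2 from rank 6 at 312 to rank 15 at 155. PLXNA4 had the highest fold change but at 18.3 per kb stood at rank 30 of 33 in shUSP2-AS1.

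**Figure D4:**
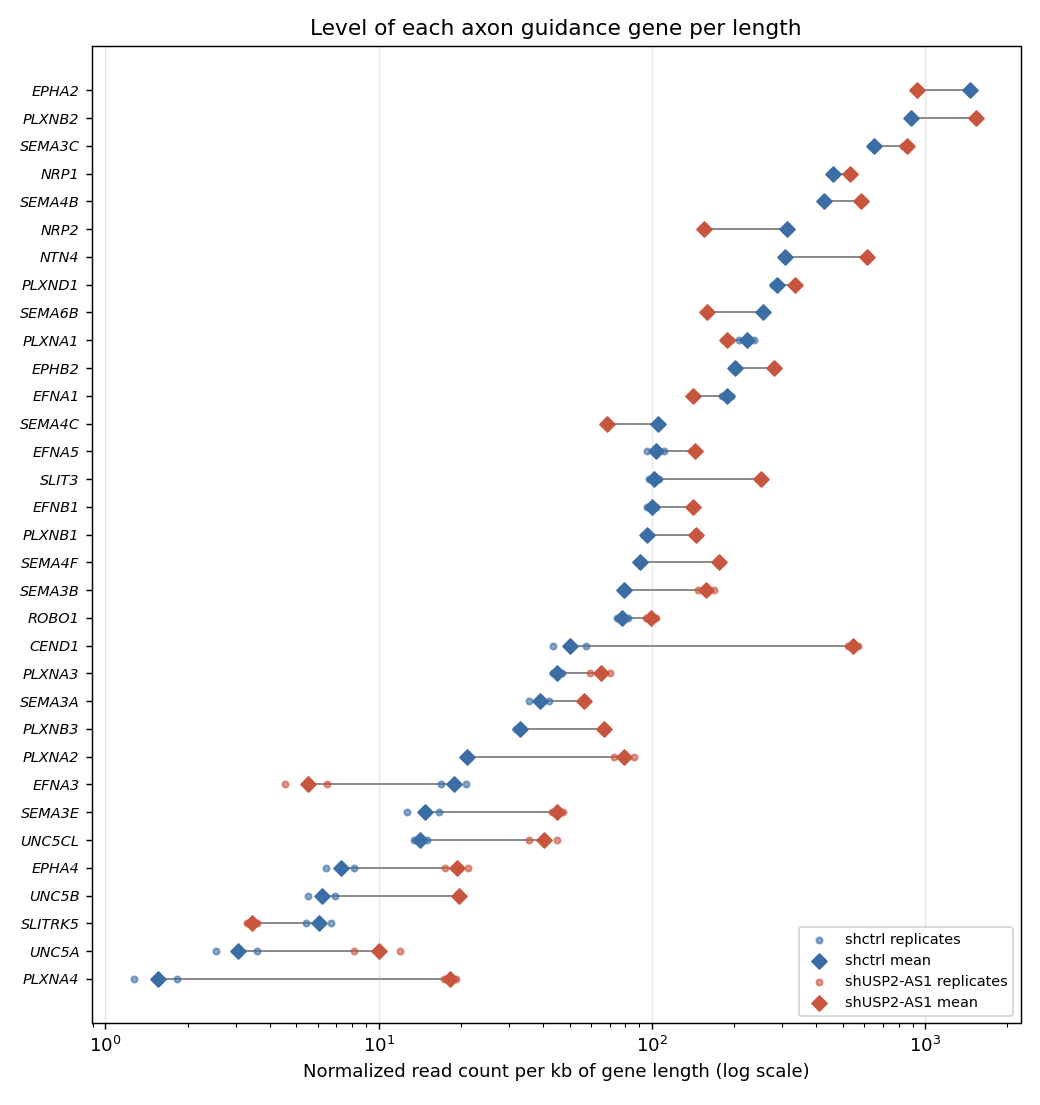
Level of each gene per kb of gene length (horizontal, normalized read count per kb, log scale), ordered by the shctrl mean. Diamonds are group means, small points the 2 libraries of each group and grey lines join the groups; PLXNA4 at 1.55 and 18.3 and CEND1 at 50.4 and 544 have the longest lines.

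The spread between libraries was small against most of these differences. The median difference between replicates was 0.10 on the log2 scale in shctrl and 0.07 in shUSP2-AS1, and the widest were 0.50 for PLXNA4 in shctrl and 0.54 for UNC5A in shUSP2-AS1. In 32 of the 33 genes the smallest of the 4 differences between a knockdown and a control library exceeded both replicate differences. The rows had been picked for a difference between these same libraries, which favours such gaps. The share over all rows was not computed, so nothing is read from this count. The 33 genes lay on 14 chromosomes, and 3 pairs lay within 1 Mb of each other: EFNA3 and EFNA1 (both lower), SEMA3E and SEMA3A (both higher), and PLXNB3 and PLXNA3 (679 kb apart on chromosome X, both higher).

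Cytoplasmic proteins that carry guidance signals to the cytoskeleton were listed for 33 of 62 genes, of which 19 were higher and 14 lower, with a median log2 fold change of 0.32. Of these, 2 (6.06%) were called higher and 1 (3.03%) lower, both below the 16.1% and 13.5% of all rows tested. The called genes were RHOD (1.37), RND1 (1.17), which binds plexins, and PAK1 (-1.42), a kinase downstream of Rac and Cdc42. RGS3, a regulator of G protein signalling that links to ephrin-B, followed at -0.95. Co-receptors, proteases, phosphatases and adhesion partners of the guidance receptors were listed for 18 of 33 genes. Of these 16 were higher and 2 lower, with a median of 0.64, and 5 (27.8%) were called higher, against 16.1% of all rows tested. Like the guidance genes, the rows of both lists had been chosen on this contrast, so these counts are descriptions. The lower genes, ITGB1 (-0.66) and MET (-0.39), did not reach the limit on the fold change. Called higher were PTPRO (2.34), a receptor phosphatase that acts on Eph receptors, ITGA1 (1.64), an integrin subunit, FLRT3 (1.31), a partner of UNC5 and Robo proteins, CNTN1 (1.27), a GPI-anchored adhesion protein, and SDC3 (1.13), a heparan sulfate proteoglycan. PTPRO rests on 7 and 6 reads in shctrl and 44 and 35 in shUSP2-AS1.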

How the data were processed

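RNA-seq of A549 cells (shctrl and shUSP2-AS1, 2 libraries each) was analysed from 1 gene table. For each gene the authors deposited a signal per library, namely normalized reads (counts over a size factor), with gene lengths and their own log2 fold changes, p-values and adjusted p-values. The deposited adjusted p-value was used only to see how rows had been selected, and their fold changes were not used. The submitters' processing notes name HISAT2 2.0.5, featureCounts 1.5.0-p3, DESeq2 1.20.0 and hg38. The annotation and strand setting are not given in the sources used here. Columns were assigned to groups by their heading (scrambled control or shRNA) and number.

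Dividing by the value of 1 read (0.880 to 1.10) gave whole reads for 100% of values within 0.01. They sum to 12330115 and 10772788 in shctrl and 11715962 and 14120472 in shUSP2-AS1 and cover the listed rows, not whole libraries. Genes with about 10 reads are measured with little precision. limma 3.58.1 in R 4.3.3 (lmFit, eBayes with trend) was fitted to log2(value + 1) of rows with a mean of at least 10, which left out 16 and tested 6812, with Benjamini-Hochberg adjustment over all rows and a call at adjusted p below 0.05 and a log2 fold change of at least 1 in size. edgeR 4.0.16 and DESeq2 1.42.0 on recovered reads, scalings, filters, pseudocounts, limits, the replicate number and left-out libraries were the alternatives. The scripts were tested on simulated data. Levels of different genes were compared per kb of listed length. Family sums and shares cover listed genes only, all of which had passed the adjusted p-value limit. They do not stand for families with unlisted members. Overlaps and chromosomes are from GENCODE v44 and the deposited coordinates. Promoter windows are from RefSeq.

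Members and lists were chosen with earlier results of these data known. Values per library are given for the 12 members with the largest absolute log2 fold change, the first of each family and the 4 with the highest level per kb, and other members by log2 fold change. The 4 effectors and 4 co-receptors with the largest values are named, as are genes nearest the limit. SDC3, ITGB1, MET, the marker genes and the values per library of PLXNA1 were added after their values were seen.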

Additional observations from a re-analysis of the deposited data

How the results depend on the processing

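All 33 genes kept their direction in the 16 alternatives run, and 28 kept their call in the 14 that leave the limit on the fold change as it was. PLXNB3 and NRP2 lost a call in some of them, and NTN4, SEMA3B and SEMA4F gained one. Against 10 genes called higher and 2 lower, a test against a fold of 2 called 6 and 0 (limma, with 9 and 1 at an unadjusted p below 0.05). No limit on the fold change called 25 and 8, and upper quartile scaling called 13 and 1. Without each library in turn, 1 to 2 were called lower, with 1 without shctrl replicate 2. In these fits the lone library is assumed to vary like the other group. Over all rows (1098 higher, 922 lower) the test against a fold of 2 called 541 and 523, and no limit 3449 and 3362. RLE scaling moved the median of all rows by -0.12. The median log2 fold change of the 33 genes (0.52) was 0.41 with DESeq2's own size factors and 0.40 with RLE scaling. That of semaphorins (0.50) was 0.38 with both, 0.56 with upper quartile scaling and 0.44 to 0.56 without single libraries. That of plexins (0.70) was 0.58 with both, and that of Eph receptors and ephrins (0.47) 0.35 with both and 0.38 to 0.47 without single libraries. The cause was not tested. The replicate block called 10 and 2, the same 12 genes. The replicate differences of the groups correlated at -0.04 across genes, so no pairing of the libraries by number was visible. Whether the libraries were prepared as pairs cannot be told from this value. DESeq2 with the deposited size factors, added after seeing the data, called the same 12 genes. Depth limits PLXNA4, UNC5A, UNC5B, UNC5CL and EFNA3, with a mean of fewer than 50 reads in shctrl.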
